A study of Mus musculus with 6 samples.

Results

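The mitochondrial ribosomal protein genes are the nuclear genes that encode the protein part of the mitochondrial ribosome. They were taken as every non-control probe whose RefSeq accession maps to a symbol made of Mrpl (large subunit) or Mrps (small subunit) and a number. The rule found 78 genes of the 36799 on the array, carried by 100 probes, of which 56 genes had 1 probe and 22 had 2. By subunit, 51 genes belong to the large subunit and 26 to the small subunit. The remaining gene, Mrps36, encodes a component of the α-ketoglutarate dehydrogenase complex rather than a core ribosomal protein. Mrps30 and Mrps18a are counted with the large subunit, where their proteins sit despite their names.

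Mitochondrial ribosomes translate the few mRNAs of mitochondrial DNA, which encode core subunits of the respiratory chain and ATP synthase. All of their proteins are made in the cytosol from nuclear genes and imported, while their rRNAs come from mitochondrial DNA, so assembly depends on both genomes. Haematopoietic stem cells (HSCs) in the resting state rely little on respiration, and mitochondrial activity increases when they leave quiescence. PolyI:C, a synthetic double-stranded RNA, provokes an interferon response that drives resting HSCs into the cell cycle, and CDK6 is a kinase that acts in G1 and is used by HSCs when they exit quiescence.

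The study hybridised 6 two-colour Agilent arrays. On 3 arrays, RNA of polyI:C-treated bone marrow HSCs labelled Cdk6-/- (Cy5) was set against a pool of sorted polyI:C-treated wild-type HSCs (Cy3), and on 3 arrays untreated HSCs labelled Cdk6-/- were set against a pool of sorted untreated wild-type HSCs. The design text calls the 3 arrays of each treatment biological replicates, but each wild-type pool is 1 RNA pool measured 3 times, so its spread is technical and wild-type mice have no measured spread. Strain, age, dose, time and sort gate were not given in the labels used here. Cy5 was always the Cdk6-/- sample, so a dye effect and the genotype cannot be told apart in any Cdk6-/- to wild-type ratio. The labels give RNA amplified as a whole transcriptome before labelling, with a dye that couples to guanine.

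Between 47.0% and 76.5% of spots were well above background in Cy5 and between 54.4% and 75.6% in Cy3, and in both channels polyI:C array 3 had the highest share. That array's ratios over all genes correlated with those of the other polyI:C arrays at only r = 0.132 and 0.216, against 0.56 between polyI:C arrays 1 and 2. PolyI:C array 3 and untreated array 3 also stood apart in Xist, the RNA of the inactive X chromosome. The brighter Xist probe had a log2 ratio of -3.42 on polyI:C array 3 and -3.98 on untreated array 3, and between 0.42 and 1.87 on the others. Results that rest on these arrays are therefore also given without them. The single Cdk6 probe was well above background on 3 of the 6 arrays in each channel, with log2 ratios of -0.26, -0.44 and -1.28 with polyI:C and 0.40, -0.41 and 0.24 untreated. No source used here places this probe relative to the deletion, so it does not check the genotype labels. All 14 HSC and progenitor markers examined (Kit, Ly6a, Slamf1, Procr and others) were well above background in both channels of every array, and so were all 13 granulocyte markers, 10 to 12 of 12 erythroid markers in Cy5 and 3 to 9 of 9 B cell markers in Cy5.

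The ribosomal protein probes were bright. Between 96 and 100 of the 100 probes were well above background in Cy5 and between 97 and 99 in Cy3, and none of their spots was saturated. Of the 78 genes, 77 were tested, each by its brightest tested probe. The exception was Mrpl21, whose single probe was too dim. The probe of Mrpl35 was missing on polyI:C array 3, and its fit leaves that array out. A log2 ratio below means Cdk6-/- over wild-type pool, and a level is the log2 intensity of 1 channel after normalization, which is compared across samples and never between genes.

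In untreated HSCs, 6 of the 77 genes were lower in the Cdk6-/- samples and none was higher (limma, Benjamini-Hochberg adjusted p under 0.05 over all 22630 genes). That is 7.79% of the members, against 9.93% of all genes called lower and 3.05% called higher, so the share was not above the background. The 6 were Mrpl28, Mrps11, Mrpl37, Mrpl49, Mrpl55 and Mrpl57. At an unadjusted p under 0.05 there were 14 of 77, against 28.5% of all genes. The median log2 ratio of the members was -0.14, against -0.05 over all genes, with 52 members below 0 and 25 above. On all 3 untreated arrays 32 members were below 0 (41.6%, against 28.3% of all genes), and 8 were above 0 on all 3 (10.4%, against 20.9%). In bulk RNA, fewer cells of a type and less RNA per cell cannot be told apart. In these ratios all 13 granulocyte markers were also below 0, with a median of -0.80, as were 8 of 9 B cell markers, with a median of -1.49. So were 10 of 11 monocyte and macrophage markers (median -0.45) and 8 of 12 erythroid markers (-0.37). Below 0 too were 6 of 10 T and NK cell markers (-0.23) and 5 of 9 megakaryocyte markers (-0.65). Of 14 HSC and progenitor markers 11 were above 0, with a median of 0.19. The part of other cell types in the ribosomal protein ratios was not tested.

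**Figure D1:**
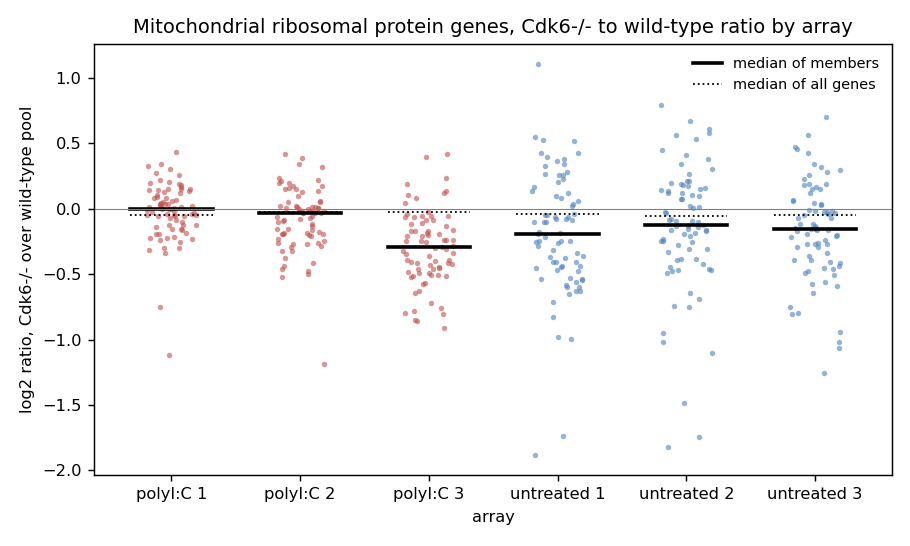
Log2 ratio of Cdk6-/- over wild-type pool (vertical axis) for each tested mitochondrial ribosomal protein gene (1 point per gene) on each array, polyI:C arrays on the left and untreated arrays on the right. Thick lines are the members' medians, which were -0.00, -0.04 and -0.30 on the polyI:C arrays and -0.20, -0.12 and -0.15 on the untreated arrays, and dotted lines are the medians of all genes.

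Mrpl28, a large subunit protein with a bacterial counterpart, had the lowest untreated ratio. Its log2 ratios were -1.89, -0.69 and -1.26 on the 3 untreated arrays, a mean of -1.28 (SE 0.23, limma adjusted p = 0.00724), or 0.412 of the wild-type level. All 3 arrays were below 0, although they differed among themselves by more than 1 log2 unit. Its level was 8.19, 9.73 and 9.03 in the untreated Cdk6-/- samples and 10.08, 10.42 and 10.29 in the untreated wild-type pool, and these did not overlap. With polyI:C its ratios were -0.02, -0.47 and -0.49, a mean of -0.33, and the difference between treatments did not pass the test (0.95, SE 0.33, adjusted p = 0.173).

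Mrps11, a protein of the platform of the small subunit, was low with both treatments. Its log2 ratios were -0.83, -1.48 and -1.02 untreated, a mean of -1.11 (SE 0.20, adjusted p = 0.00783). With polyI:C they were -1.12, -1.19 and -0.50, a mean of -0.94 that missed the threshold (SE 0.20, adjusted p = 0.069). All 6 arrays had less Mrps11 signal in Cdk6-/- cells than in the pool. The difference between treatments was 0.17 (SE 0.29, adjusted p = 0.828), which leaves both a smaller and a larger ratio with polyI:C possible.

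The other 4 genes all encode large subunit proteins. Mrpl37 had ratios of -0.63, -1.10 and -0.94 untreated (mean -0.89, SE 0.20, adjusted p = 0.0185). Mrpl49 had -0.44, -0.75 and -1.07 (mean -0.75, SE 0.18, adjusted p = 0.0245). Each of these was below 0 on every untreated array by its tested probe. The second probe of Mrpl49 gave a mean of -0.73 from ratios of 0.127, -1.105 and -1.209, so it was above 0 on untreated array 1. Mrpl55 had -0.65, -0.49 and -0.81 (mean -0.65, SE 0.17, adjusted p = 0.0292), and Mrpl57 had -0.71, -0.44 and -0.80 (mean -0.65, SE 0.18, adjusted p = 0.0399). With polyI:C the means of these 4 were -0.32, -0.12, -0.14 and -0.08, in the order named, and none passed the threshold. Of the 77 genes, Mrps12 had the highest untreated mean, at 0.54 (SE 0.18, adjusted p = 0.0754). Its protein, named after bacterial S12, belongs to the decoding site.

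The calls depended on which arrays and which normalization were used. Without untreated array 3, 2 genes passed, without untreated array 2 also 2, and without untreated array 3 and polyI:C array 3 only Mrps11. Calls over all genes fell too. Lower calls went from 2248 to 1225, 1366 and 1252 in that order, and higher calls from 691 to 284, 264 and 386. Median centring in place of the loess curve gave 10 higher and 1 lower genes, and only Mrpl28 was shared. Of all 22630 genes it called 4876 higher and 1330 lower. Under that scaling the median of all genes was 0.30 and that of the members 0.29.

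**Figure D2:**
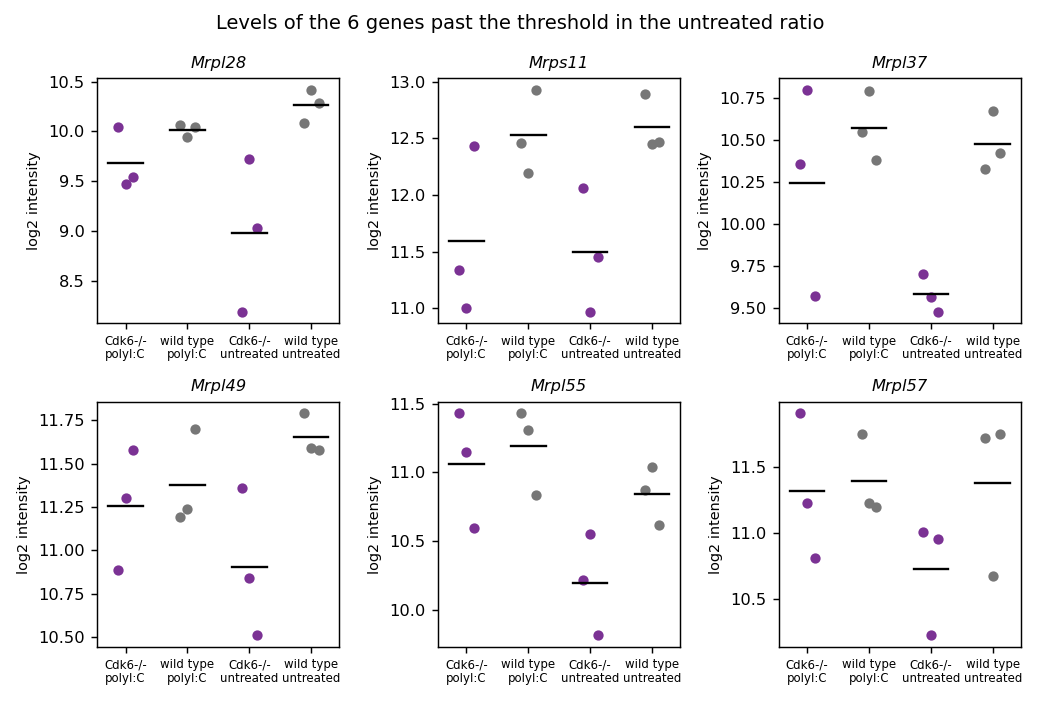
Normalized log2 intensity on each array (points) and group mean (line) of the 6 genes past the threshold in untreated HSCs, Cdk6-/- samples in purple and wild-type pools in grey, polyI:C on the left of each panel and untreated on the right; vertical axes differ between panels and do not start at 0. Untreated Cdk6-/- points lie below the untreated wild-type points for Mrpl28, Mrps11, Mrpl37, Mrpl49 and Mrpl55, while Mrpl57 overlaps because the pool read 10.67 on untreated array 2.

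Promoter windows are shown for 3 of the genes that were low in untreated Cdk6-/- cells and for Mrpl17, described below, because they carry 3 motifs that were frequent near the starts of these genes. The windows run from 250 bases before to 50 after the start, from RefSeq on GRCm38.p6, and capitals mark matches on either strand to NRF1 (GCGCA and GCGC with 1 base between them), ETS (CCGGAAG) or YY1 (AANATGGCG), which do not overlap here. Mrps11 (chr7:78782881-78783180, plus strand) and Mrpl37 (chr4:107066817-107067116, minus strand) each hold a YY1 match. Mrpl57 (chr14:57825989-57826288, plus strand) and Mrpl17 (chr7:105811038-105811337, minus strand) each hold an NRF1 and an ETS match. These windows were picked for their matches. The windows of Mrpl28, Mrpl49 and Mrpl55, the other genes called lower untreated, hold no match to these motifs. Nor does that of Mrpl47, described below.
Mrps11: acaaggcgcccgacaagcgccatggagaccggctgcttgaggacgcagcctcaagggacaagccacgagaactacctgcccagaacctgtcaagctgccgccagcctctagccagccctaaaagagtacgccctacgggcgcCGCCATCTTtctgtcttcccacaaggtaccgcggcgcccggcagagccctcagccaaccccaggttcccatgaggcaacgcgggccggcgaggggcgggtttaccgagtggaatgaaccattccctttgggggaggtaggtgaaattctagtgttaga
Mrpl37: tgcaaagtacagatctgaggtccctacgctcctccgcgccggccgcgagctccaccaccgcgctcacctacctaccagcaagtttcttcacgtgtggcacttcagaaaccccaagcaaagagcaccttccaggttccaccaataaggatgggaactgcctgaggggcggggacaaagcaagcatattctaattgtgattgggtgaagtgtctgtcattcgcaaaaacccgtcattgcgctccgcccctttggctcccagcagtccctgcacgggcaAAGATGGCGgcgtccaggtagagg
Mrpl57: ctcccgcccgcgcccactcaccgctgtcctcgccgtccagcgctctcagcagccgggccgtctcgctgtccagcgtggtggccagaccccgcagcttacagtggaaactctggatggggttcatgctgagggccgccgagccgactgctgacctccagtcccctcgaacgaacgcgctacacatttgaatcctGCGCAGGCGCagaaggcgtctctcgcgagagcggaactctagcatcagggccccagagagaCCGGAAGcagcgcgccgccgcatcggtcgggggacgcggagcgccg
Mrpl17: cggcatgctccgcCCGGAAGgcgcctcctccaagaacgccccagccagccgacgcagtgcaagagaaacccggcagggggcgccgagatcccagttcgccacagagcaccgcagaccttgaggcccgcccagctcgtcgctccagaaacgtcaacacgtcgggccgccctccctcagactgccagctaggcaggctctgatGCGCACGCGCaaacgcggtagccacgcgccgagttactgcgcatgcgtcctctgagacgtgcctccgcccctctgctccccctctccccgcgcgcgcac

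NRF1, a regulator of nuclear genes for respiration, ETS factors such as GABP, and YY1 are known to bind promoters of mitochondrial genes. Of the 69 members with a window, 26 (37.7%) held the ETS motif, 13 (18.8%) the NRF1 motif and 11 (15.9%) the YY1 motif. Over all 17492 genes with a window the shares were 12.9%, 7.17% and 3.64%. The CCAAT box was in 39.1% of members and 42.3% of all genes, the E-box CACGTG in 7.25% and 8.91%, and the E2F motif TTCCCGC in 7.25% and 6.84%. The interferon response motif (GAAA and GAAA with 2 bases between them) was in 4.35% of members and 3.94% of all genes. These counts describe letters in the windows and not binding.

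Many of these genes start beside another gene that runs the opposite way. A protein-coding neighbour on the other strand started within 1000 bases for 24 of the 69 members (34.8%), against 8.48% of all protein-coding genes. Mrps11 and Mrpl46 are the one such pair made of 2 members, with 42 bases between their starts. Untreated, Mrps11 fell by 1.11 and Mrpl46, a large subunit protein, had a mean of 0.29 from scattered ratios of 1.11, -0.47 and 0.23 (adjusted p = 0.534). Mrpl37 starts 128 bases from Cyb5rl, a cytochrome b5 reductase-like gene that was higher in untreated Cdk6-/- cells (1.06, SE 0.19, adjusted p = 0.00738) while Mrpl37 was lower. Of the 22 member and neighbour pairs in which both genes were tested, 8 had ratios of the same sign untreated.

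With polyI:C, no member passed the threshold in the Cdk6-/- to wild-type ratio in either direction. Of all genes 0.318% were called higher and 0.65% lower (0.968% in either direction). An unadjusted limma p under 0.05 was found for 2 of 77 members, against 13.4% of all genes. The median of the members was -0.13, against -0.02 over all genes, with 60 members below 0 and 17 above. Most of this came from 1 array. Without polyI:C array 3 the median was -0.05, against -0.04 over all genes, and 48 members were below 0. Of the 76 genes measured on all 3 arrays 25 were below 0 on each (32.9%, against 21.6% of all genes) and 2 were above 0 on each (2.63%, against 16.5%).

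Among the genes with the same sign on all polyI:C arrays, the lowest after Mrps11 was Mrps22, a small subunit protein without a bacterial counterpart. Its ratios were -0.34, -0.28 and -0.91, a mean of -0.51 (SE 0.19, adjusted p = 0.266). Mrpl51 had -0.22, -0.46 and -0.49, a mean of -0.39 (adjusted p = 0.408). Mrpl47 and Mrpl3 followed at -0.37 and -0.36. The 2 genes above 0 on every polyI:C array were Mrps7 (0.15, 0.06 and 0.40, mean 0.20, adjusted p = 0.688) and Mrps34 (0.17, 0.17 and 0.12, mean 0.15, adjusted p = 0.81). The next highest by this rule were Mrps30 at -0.08, Mrpl55 at -0.14 and Mrps15 at -0.16. In the same ratios all 13 granulocyte markers were above 0, with a median of 0.86, and all 12 erythroid markers were below 0, with a median of -0.95. Above 0 were also 10 of 11 monocyte and macrophage markers (median 0.94) and 6 of 9 B cell markers (0.05). So were 7 of 10 T and NK cell markers (0.12) and 6 of 9 megakaryocyte markers (0.25). Of 14 HSC and progenitor markers 11 were below 0, with a median of -0.08.

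No member passed the threshold for a difference in its ratio between the treatments, where 1.6% of all genes were called higher with polyI:C and 0.199% lower (1.79% together). The median difference was 0.05, against 0.04 over all genes. Of the 77 members 5 had an unadjusted limma p under 0.05, against 16.5% of all genes. That count was 2 without untreated array 1, 3 without untreated array 3, 2 without polyI:C array 1 and 1 without polyI:C array 2. It stayed at 5 without untreated array 2 and without polyI:C array 3. The share of all genes was not counted under these settings either, so the drop cannot be read as one of the members. Mrpl28 had the largest positive difference among those with a steady sign, and Mrpl55 was next with 0.51 (SE 0.23, adjusted p = 0.309). Mrps23 followed at 0.27, Mrps11 at 0.17 and Mrpl47 at 0.12. At the other end were Mrps36 at -0.57 (SE 0.24, adjusted p = 0.269), Mrps14 at -0.40, Mrps22 at -0.31, Mrps9 at -0.14 and Mrps2 at -0.08. The 14 members with groups that did not overlap were split between 8 with a higher ratio on every polyI:C array (10.5%, against 14.3% of all genes) and 6 with a lower one (7.89%, against 8.48%).

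Between polyI:C-treated and untreated Cdk6-/- HSCs no member passed the threshold, while most of their differences lay above 0. The median difference in Cy5 level was 0.53 log2 units, a fold of 1.44, against 0.03 over all genes. Of the 77 genes 66 were above 0 (85.7%), against 52.6% of all genes. In 26 of 76 genes all 3 polyI:C samples were above all 3 untreated samples (34.2%, against 9.2% of all genes), and in none were they all below (7.71% of all genes). At an unadjusted p under 0.05 there were 18 of 77, against 10.3% of all genes. That count moved with single arrays. It was 34 without polyI:C array 3, 6 without polyI:C array 1 and 6 without polyI:C array 2. Without untreated arrays 1, 2 and 3 in turn it was 9, 11 and 12. The share of all genes was not counted under these settings, so these counts cannot be set against a background. After adjustment 0.106% of all genes were called higher and 0.0574% lower (0.163% together), so calls were rare in this comparison as a whole. The arrays of the 2 treatments are single-channel readings from different arrays, and this comparison carries the differences between arrays that a ratio cancels.

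Mrpl47, a large subunit protein beside the exit of the peptide tunnel, showed the largest difference. Its levels were 10.06, 10.39 and 10.07 in the polyI:C-treated samples and 7.92, 9.10 and 8.55 in the untreated samples, so the groups did not overlap. The difference was 1.65 (SE 0.37, a fold of 3.14, adjusted p = 0.148), and its second probe gave 1.13. Its divergent neighbour Ndufb5, a complex I subunit, differed by only -0.04 (adjusted p = 0.989).

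Mrpl17, whose promoter window is printed above, had levels of 10.92, 11.47 and 11.17 with polyI:C and 9.18, 10.18 and 10.21 untreated. The difference was 1.33 (SE 0.38, adjusted p = 0.249), and every polyI:C sample was above every untreated one. Mrps35, a small subunit protein without a bacterial counterpart, had 9.33, 9.25 and 8.69 with polyI:C and 8.41, 7.00 and 8.29 untreated, a difference of 1.19 (SE 0.44, adjusted p = 0.387). Mrps35 did not overlap either, but its lowest reading was that of untreated array 2, and it was well above background in Cy5 on only 2 of the 3 untreated arrays. Without untreated array 2 the difference was 0.74. Mrpl30 differed by 1.12 and Mrpl58 by 1.07, with adjusted p = 0.258 and 0.292. MRPL58 is a peptidyl-tRNA hydrolase that releases stalled chains while built into the large subunit.

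The genes at the low end did not separate the treatments. Mrpl24 had levels of 12.57, 12.49 and 11.69 with polyI:C and 12.46, 12.68 and 12.54 untreated, a difference of -0.31 (adjusted p = 0.856). Mrps21 had 11.39, 10.65 and 9.34 with polyI:C and 10.20, 10.99 and 10.93 untreated, a difference of -0.25 (adjusted p = 0.936). In both, the lowest reading was that of polyI:C array 3. Mrpl34 followed with -0.24, Mrps5 with -0.18 and Mrps36 with -0.13. Mrps21, Mrpl34, Mrps5 and Mrps36 changed sign without polyI:C array 3.

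Without that array the median over the members was 0.69, against 0.00 over all genes. Of the 77 members 74 were above 0, while 11339 of all genes were above 0 and 11291 below. In 57 of 77 the polyI:C samples were all above the untreated ones (74%, against 19.6% of all genes). On slide 1, which held polyI:C array 1 and untreated arrays 1 and 3, the median difference was 0.77, with 74 of 77 genes above 0. Over all genes the slide 1 median was -0.00. On slide 2, with the second array of each treatment, the members' median was 0.54, with 65 of 77 above 0, and that of all genes 0.02. PolyI:C array 3 lay alone on slide 3 and gives no within-slide value.

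In the wild-type pools most members also lay above 0, which is given as values with no test because each pool is 1 sample. The median difference of polyI:C over untreated pool was 0.47 log2 units in Cy3, a fold of 1.39, against -0.00 over all genes. Of the 77 members 67 were above 0 (87%, against 49.8% of all genes). In 39 of 76 genes all 3 readings of the polyI:C pool were above those of the untreated pool (51.3%, against 19.3% of all genes), and in 3 they were all below (3.95%, against 23.2%). Mrpl47 was again first, with levels of 10.36, 10.57 and 10.69 in the polyI:C pool and 8.90, 9.31 and 8.84 in the untreated pool, a difference of 1.53. The next, chosen by size after their values were seen, were Mrpl12 with 1.28 and Mrpl30 with 1.18. Mrpl12, known to bind the mitochondrial RNA polymerase, read 11.65, 11.62 and 11.79 in the polyI:C pool and 10.43, 10.43 and 10.36 in the untreated pool. The lowest were Mrpl34 with -0.51, Mrps21 with -0.49 and Mrpl33 with -0.43. Between the same pools the medians of other cell types' markers also differed: -2.70 over 9 B cell markers (8 below 0), -1.94 over 13 granulocyte markers (12 below 0), and -1.46 over 11 monocyte and macrophage markers (10 below 0). Of 12 erythroid markers 9 were below 0, while the medians were -0.22 over 14 HSC and progenitor markers, 0.60 over 10 T and NK cell markers and 1.15 over 9 megakaryocyte markers. Their part in the members' values was not tested. Of the 77 genes 60 were above 0 in both genotypes, a count that was not made over all genes. The 2 genotypes' readings come from the same 6 arrays, so shared array effects enter both.

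**Figure D3:**
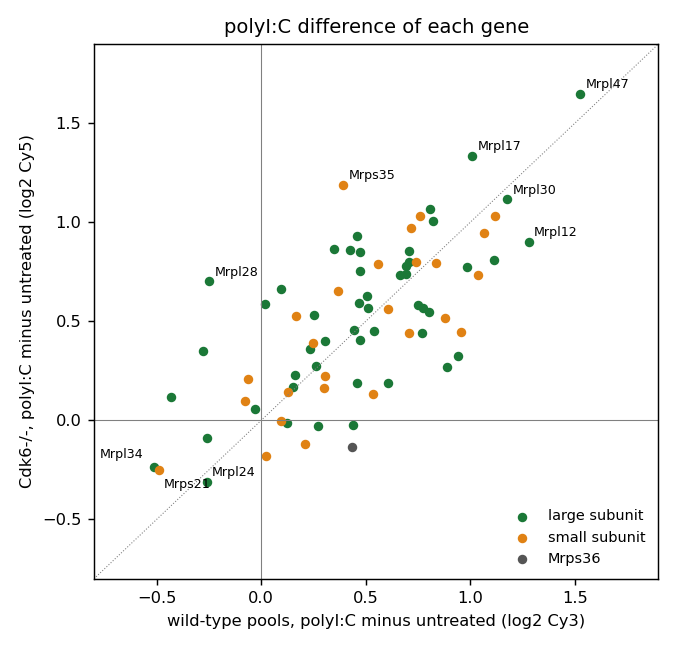
Difference between polyI:C and untreated for each tested gene, in Cdk6-/- samples (vertical axis, log2 Cy5) and in wild-type pools (horizontal axis, log2 Cy3), large subunit in green, small subunit in orange and Mrps36 in grey; the dotted line marks equal differences. Most points lie above 0 on both axes, with Mrpl47 farthest out at 1.65 and 1.53.

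By subunit, the polyI:C difference in the Cdk6-/- samples had a median of 0.56 over 50 large subunit genes (44 above 0) and 0.48 over 26 small subunit genes (22 above 0). In the wild-type pools the medians were 0.47 and 0.47. Within the small subunit, the 10 genes listed as specific to mitochondria, among them the S18 paralogue Mrps18b, had a median of 0.87 in the Cdk6-/- samples and 0.71 in the pools. The 16 listed with a bacterial counterpart had 0.22 in the Cdk6-/- samples and 0.27 in the pools. The large subunit genes named Mrpl1 to Mrpl36, all with bacterial counterparts, had a median of 0.45 in the Cdk6-/- samples, and the later-named ones, most without a counterpart, 0.59. The difference between these classes was not tested.

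The paralogues of bacterial S18 show how related members compared. Mrps18b had levels of 12.82, 13.27 and 12.64 with polyI:C and 11.09, 12.46 and 12.34 untreated in the Cdk6-/- samples, a difference of 0.94 (SE 0.43, adjusted p = 0.498). Its 3 polyI:C readings were above all untreated ones. Mrps18a differed by 0.36 and Mrps18c by 0.14, and neither passed the threshold. In the Cdk6-/- to wild-type ratio the 3 genes lay between -0.20 and 0.03 untreated and between -0.18 and -0.01 with polyI:C.

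Other genes of mitochondrial translation were taken from fixed lists. The 5 mitoribosome proteins under other names (Dap3, Ptcd3, Aurkaip1, Chchd1 and Gadd45gip1) had no call in any comparison, and their median polyI:C difference was 0.37 in the Cdk6-/- samples and 0.56 in the pools. Of 15 tested translation factors and mRNA-binding proteins, 1 was called, Mtres1, a protein that rescues stalled mitochondrial ribosomes, which was higher in untreated Cdk6-/- cells (0.999, SE 0.18, adjusted p = 0.00702). Of 25 assembly and rRNA modification factors, 1 was called, Mettl17, an assembly factor of the small subunit, which was lower (-1.08, SE 0.24, adjusted p = 0.0179). Of 9 genes of mitochondrial DNA expression and maintenance, Polg, the mitochondrial DNA polymerase (-0.86, adjusted p = 0.0246), and Top1mt, the mitochondrial topoisomerase (-0.82, adjusted p = 0.044), were lower untreated. In untreated cells 3.05% of all genes were called higher and 9.93% lower. Called lower were 4% of the assembly and rRNA modification factors and 22.2% of the 9 genes of mitochondrial DNA expression and maintenance. None of the 16 aminoacyl-tRNA synthetases passed in any comparison. Their median polyI:C difference was 0.32 in the Cdk6-/- samples and 0.52 in the pools.

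Ribosomal proteins of the cytosol had polyI:C differences centred near 0. The 75 cytosolic ribosomal protein genes had a median difference of 0.01 in the Cdk6-/- samples, with 39 above 0, and of -0.02 in the wild-type pools. Their median levels were 14.63 to 15.00 by array in Cy5 and 14.58 to 14.75 in Cy3. Saturation was counted only for spots of the mitochondrial set, so a limit at such bright signals was not tested. Their ratios ran above 0, with a median of 0.25 with polyI:C (71 of 75 above 0) and 0.15 untreated (58 of 75), where Rps6 was called higher (0.62, adjusted p = 0.0489). The 80 tested subunits of the respiratory chain and ATP synthase had a median polyI:C difference of 0.18 in the Cdk6-/- samples (57 above 0) and 0.10 in the pools. Untreated they had a median ratio of -0.17 with 4 called lower (5%, against 9.93% of all genes), led by Cox6a2 (-1.28, adjusted p = 0.00596). The others were Sdhc (-0.92), Cox6b1 (-0.75) and Ndufb9 (-0.61). The difference between these lists and the mitochondrial ribosomal proteins was not tested. In the Cdk6-/- samples the polyI:C difference also had a median of 1.26 over 10 T and NK cell markers, 1.03 over 9 megakaryocyte markers, -0.10 over 13 granulocyte markers, -0.20 over 11 monocyte and macrophage markers, -0.48 over 14 HSC and progenitor markers, -1.05 over 9 B cell markers and -1.48 over 12 erythroid markers. The part of cell composition in the members' difference was not tested.

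**Figure D4:**
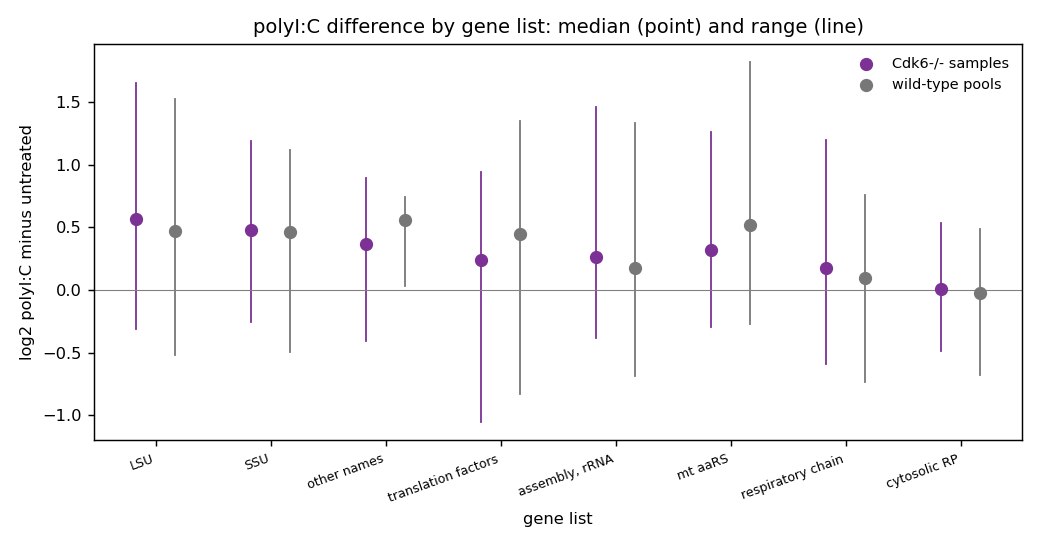
Median (point) and range from lowest to highest gene (line) of the difference between polyI:C and untreated, on the log2 scale, for 8 gene lists, Cdk6-/- samples in purple and wild-type pools in grey. LSU and SSU are the large and small subunit genes, with medians of 0.56 and 0.48 in Cdk6-/- samples, and the cytosolic ribosomal proteins (RP) lie at 0.01.

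Where a gene had 2 tested probes, the probes often differed. Of 21 such genes, both probes had the same sign in 10 untreated, in 14 with polyI:C and in 15 for the polyI:C difference in Cy5. In Mrpl50, Mrps14 and Mrps36 the untreated ratios of the 2 probes differed in sign by over 0.5 log2 units. Mrps36 had 0.27 by its brighter probe and -0.61 by the other, and Mrpl50 had 0.35 and -0.38. The dimmer probe of Mrps14 was not well above background in Cy5 on any untreated array, so it gives no usable untreated ratio or polyI:C difference, although the counts above include it.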

How the data were processed

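Scanner files of 6 two-colour arrays were used. The authors' Feature Extraction software (11.5.1.1, per the file headers) gave linear intensities per spot in both colours. The files also hold a log10 ratio of the processed signals, per the file headers. The deposited log2 ratios equalled the log2 of the processed Cy5 over Cy3 signals to within 2.52e-06, with no further centring, and served as an alternative. Median signals were background-corrected (normexp, offset 50) and loess-normalized within arrays in limma 3.58.1 (R 4.3.3); control spots and flagged spots (0.657%) were left out, and spots of a probe averaged. A probe was tested if well above background in either colour on all 3 arrays of a group, and a gene by its brightest such probe (31802 of 55681 probes, 22630 genes). Single-channel levels were taken after Aquantile normalization. Groups were compared with limma's moderated test and Benjamini-Hochberg adjustment over all 22630 genes at 0.05. The precision is limited by 3 arrays a group. Gene names came from the RefSeq accessions of the probes (22244 of 23839 matched).

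In each comparison the members past the threshold were named, or else the 5 highest and 5 lowest. In the ratio comparisons these had to have the same sign on all arrays of each group, which was not asked of the Cy5 levels. Also named were members whose probes differed in sign by over 0.5, the S18 paralogues, and up to 4 called genes of each other list. Called genes of the cell type marker lists were not named. Members and lists were chosen with earlier results of these data known. The scripts were tested on simulated data.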

Additional observations from a re-analysis of the deposited data

Results flagged for a closer look

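Mrps14 and Mrps36 had ratios of one sign on all 3 polyI:C arrays and of the opposite sign on all 3 untreated arrays. Mrps36 had log2 ratios of -0.12, -0.33 and -0.46 with polyI:C and 0.38, 0.35 and 0.07 untreated, a difference of -0.57 (limma adjusted p = 0.269). Mrps14, a small subunit protein, had -0.19, -0.23 and -0.51 with polyI:C and 0.06, 0.19 and 0.03 untreated, a difference of -0.40 (limma adjusted p = 0.43). Neither difference passed the threshold. Such a change of sign occurred in 2 of 76 members (2.63%) and in 6.63% of all genes. The second probe of Mrps36 was below 0 with both treatments, at -0.27 with polyI:C and -0.61 untreated. The second probe of Mrps14 was not well above background in Cy5 on any untreated array, and it bears on polyI:C only, where it averaged -0.30.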

How the results depend on the processing

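No paired analysis was possible because the replicate numbers follow accession order and pair no samples; slides were used as a block instead. Over all settings, 121 counts and medians stayed near their first value, 18 moved farther and 5 medians changed sign. Near meant within a fixed fold for a count and within the SD between array medians for a median. Of the single-gene values, 529 kept their direction and stayed called or not called, 33 lost the call, 1 gained it and 22 changed sign. All 33 lost calls belong to the 6 genes called untreated, the only ones with a call to lose. Their passes by setting follow below. The causes were not tested unless stated.

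The untreated count of 6 became 11 with median centring and 2 with the processed signals and with the deposited table (Mrpl28 and Mrps11 in both). It ranged from 2 to 8 with 1 array left out. Without untreated array 3 and polyI:C array 3, an alternative added after seeing the data, it was 1. Over all genes 2248 were called lower and 691 higher at first. These became 1395 and 574 with the processed signals, and 1382 and 566 with the deposited table. With 1 array left out, lower calls over all genes ranged from 1167 to 2420 and higher calls from 209 to 1006. Of 17 settings Mrpl28 and Mrps11 passed in 16 each, Mrpl37 and Mrpl49 in 11, Mrpl55 in 9 and Mrpl57 in 6. The untreated median was 0.29 with median centring, -0.077 with the processed signals and with the deposited table, and -0.16 to -0.14 with 1 array left out.

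With polyI:C the ratio count of 0 became 1 with median centring and 1, Mrps11, with probes above background in both channels on all arrays. Over all genes 2345 were called higher and 238 lower with median centring. With that filter 104 were called higher and 164 lower of 16528 genes. The polyI:C median was 0.25 with median centring, where all genes had 0.21, and -0.20 to -0.05 with 1 array left out. Under median centring Mrpl51 had 0.20, Mrps15 0.31, Mrpl55 0.22 and Mrps30 0.25.

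The median difference between treatments in the ratio was 0.17 within slide 1, -0.0034 within slide 2 and -0.027 to 0.12 with 1 array left out. In that difference Mrps2 had 0.026 with slide as a fixed block and 0.020 without untreated array 3 and polyI:C array 3, and with 1 array left out it ranged from -0.14 to 0.041, Mrpl47 from -0.12 to 0.27 and Mrps11 from -0.044 to 0.31.

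The median polyI:C difference in the Cdk6-/- samples was 0.69 with slide as a fixed block, 0.77 without untreated array 3 and polyI:C array 3, 0.77 within slide 1 and 0.44 to 0.69 with 1 array left out. With slide as a fixed block and without untreated array 3 and polyI:C array 3, Mrps21 had 0.32 and 0.42, Mrps5 0.067 and 0.076, and Mrps36 0.11 and 0.063. With 1 array left out Mrps21 ranged from -0.72 to 0.31, Mrpl34 from -0.45 to 0.089, Mrps5 from -0.44 to 0.088 and Mrps36 from -0.32 to 0.15. In the wild-type pools the median was 0.60 with scaling to the 75th percentile, 0.59 without untreated array 3 and polyI:C array 3 and 0.43 to 0.58 with 1 array left out.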
